A study of Arabidopsis thaliana with 9 samples.

Results

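Calcium is a second messenger in plant cells. Channels in the membranes let it into the cytosol, where proteins with EF-hand loops bind it and pass the signal on to their targets. Calmodulin-like proteins (CMLs) are sensors of this kind that carry no kinase domain of their own. Glutamate receptor-like proteins (GLRs) are relatives of the ionotropic glutamate receptors of animals, and in leaves they are known for amino acid-gated calcium entry, for the electrical signals that follow wounding and for calcium influx in immunity.

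The genes described here were chosen by name: any probe set that the annotation of the array assigns to 1 gene was taken if its symbol was CPK, CDPK, CIPK, CBL, CAM, CML, CNGC, GLR or CAX followed by a number. *CML37*, *CML38* and *CML39* were left out. This gave 12 genes, each with 1 probe set, of 13513 single-gene probe sets and 22810 probe sets in all. They are 5 CMLs (*CML23*, *CML30*, *CML41*, *CML42* and *CML43*) and 7 GLRs (*GLR1.4*, *GLR2.7*, *GLR2.8*, *GLR2.9*, *GLR3.3*, *GLR3.5* and *GLR3.6*). The other 7 of the 9 symbol prefixes (CPK, CDPK, CIPK, CBL, CAM, CNGC and CAX) matched no single-gene probe set. The set therefore holds sensors and channels and no calcium-dependent kinase.

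Total RNA of mature leaves was hybridized to Affymetrix ATH1 arrays, 3 for each of 3 groups of 45-day-old *Arabidopsis* (Col-0) plants grown without stress at 22 °C with 12 h of light. In *MeGRXC15*-OE, which GEO lists as MeGRX232-OE, the plants carried a cassava CC-type glutaredoxin fused to GFP behind the constitutive 35S promoter, and their arrays came from the homozygous lines 3, 9 and 12. MeGRX360-OE plants (lines 5, 11 and 20) carry by their label another cassava glutaredoxin, whose identity the sources do not state outright. Control plants (numbered 1 to 3) carried the empty vector pG1300, which codes for eGFP, so all 3 groups were transformed plants. In what follows the arrays are given in the order of their replicate numbers. Each replicate of an overexpressing group was another transgenic line, so the spread within such a group includes the difference between lines. Both comparisons with the vector share the same 3 vector arrays.

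The values are probe set intensities on a linear scale in arbitrary units, normalized between arrays by the authors, with array medians of 28.1 to 30.2. Differences were tested with limma on log2 intensity over all 22746 probe sets other than the manufacturer's controls. The words rise and fall are kept for genes with a Benjamini-Hochberg adjusted p under 0.05, and SE is the standard error of the log2 fold change with 3 arrays in each group. Of the leaf mesophyll markers listed, 3 of 22 had a named probe set. *RCA* was at 11125 to 11616 in vector plants, 6875 to 8038 with *MeGRXC15* overexpressed and 8988 to 9340.5 in MeGRX360-OE plants, *PRK* was at 4070.1 to 4596, 1803 to 2204 and 2749.7 to 3473, and *LHCB4.1* was at 3815 to 5669.7, 4284 to 5940.0 and 5929 to 7312. *SWEET11*, a sugar exporter of phloem cells and the only phloem marker measured, was at 3330.1 to 4153, 1410.4 to 2165 and 1861 to 2871 in the same order. The part of these levels in the results was not tested. *SPCH*, *MUTE*, *EXPA7*, *ACT11* and *CLV3*, markers of stomatal precursors, root hairs, pollen and the shoot meristem, stayed between 5.17 and 22.3. They were 2 of 10 guard cell and 1 of 14 root markers listed. For pollen and flower 1 of 9 was measured, and for meristem and dividing cells 1 of 6. So few genes do not show that a cell type was absent. The 25S rRNA probe set was at 279 to 350.4 on the vector arrays, at 430.3 to 616 with *MeGRXC15* overexpressed and at 853 to 1073 on the MeGRX360-OE arrays, and its part in the results was not tested.

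Compared with the vector, 2 of the 12 genes rose in *MeGRXC15*-OE leaves, *CML23* and *CML42*, and none fell. In MeGRX360-OE leaves 3 rose, *CML23*, *CML42* and *GLR3.5*, and none fell. As a share of the 12 genes this was 16.7% and 25%, whereas over all probe sets 22.0% were called in *MeGRXC15*-OE (9.22% higher and 12.8% lower) and 16.5% in MeGRX360-OE (6.74% higher and 9.72% lower). With 12 genes each gene is 8.33% of the set, so a distance of 1 or 2 genes from the background is not a result about the set. The median log2 fold change of the 12 genes was 0.09 in *MeGRXC15*-OE, beside 0.0025 over all probe sets, and 0.11 in MeGRX360-OE, beside 0.01. Divided by family, 2 of the 5 CMLs rose in each overexpressor, and 0 and 1 of the 7 GLRs. Whole leaves were measured, so a change in the number of cells of a type and a change in RNA per cell cannot be told apart.

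**Figure D1:**
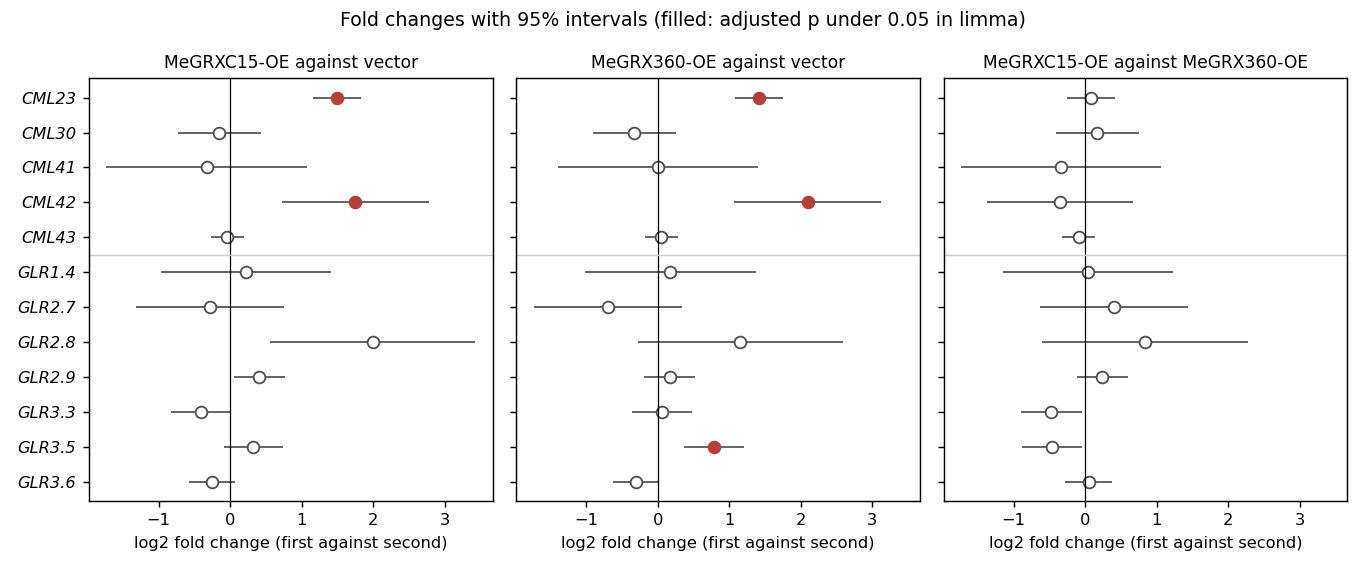
Log2 fold changes of the 12 genes in the 3 comparisons (points), with 95% intervals from limma (lines) and filled points where the adjusted p was under 0.05. CML23 and CML42 lie to the right of 0 in both comparisons with the vector, GLR3.5 is filled only against the vector in MeGRX360-OE, and no point is filled between the overexpressors.

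*CML23* (AT1G66400), a close relative of the touch-induced sensor *CML24*, showed the most even response. Its intensity was 103, 104 and 110.0 in *MeGRXC15*-OE, 87.1, 116 and 98.7 in MeGRX360-OE, and 31.8, 39.4 and 41.8 in vector plants. Each of the 6 overexpressor arrays was above each vector array. The rise was 1.5 on the log2 scale in *MeGRXC15*-OE (SE 0.14, a 2.82-fold change with a 95% interval of 2.26 to 3.53, limma adjusted p = 2.1e-04). In MeGRX360-OE it was 1.42 (SE 0.14, 2.67-fold, limma adjusted p = 6.36e-04). The overexpressors overlapped, and the difference between them was 0.08 with a 95% interval of -0.24 to 0.40. *CML23* is the only one of the 12 genes whose call held under each of the alternative settings tried, in both comparisons, with an adjusted p of at most 0.00144 and 0.00437.

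*CML42* (AT4G20780), a sensor with known roles in trichome branching and in defence against herbivores, had the largest fold change among the 5 CMLs. It measured 86.0, 264 and 201 in *MeGRXC15*-OE, 117, 282 and 285 in MeGRX360-OE, and 46.0, 50.1 and 52.0 in vector plants. The vector arrays lay close together, all overexpressor arrays lay above them, and the array of replicate 1 was the lowest of its group in both overexpressors. On the log2 scale the gene rose by 1.75 in *MeGRXC15*-OE (SE 0.45, 3.36-fold, limma adjusted p = 0.0219) and by 2.1 in MeGRX360-OE (SE 0.45, 4.29-fold, limma adjusted p = 0.0137). Between the overexpressors the arrays overlapped, with a difference of -0.35 and a 95% interval of -1.36 to 0.66. In *MeGRXC15*-OE the call was lost without replicate 2 (1.41, limma adjusted p = 0.0692) or 3 (1.61, 0.0603) of that group. It was also lost without vector replicate 1 (0.0644), 2 (0.0651) or 3 (0.0522), with the log2 fold change at 1.70, 1.76 and 1.79. In MeGRX360-OE it was lost without replicate 3 of that group (1.88, limma adjusted p = 0.055).

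*CML41* (AT3G50770), which acts at plasmodesmata in immune responses, is the brightest of the 5 CML probe sets, although brightness does not rank transcripts of different genes. Its arrays read 1152, 842 and 194 in *MeGRXC15*-OE, 1044, 520.5 and 693 in MeGRX360-OE, and 953, 480.1 and 822 in vector plants. The groups overlapped throughout, and replicate 3 of *MeGRXC15*-OE (line 12) lay far below the other 8 arrays. The highest of the 3 *MeGRXC15*-OE arrays was 5.93 times the lowest, beside a median of 1.27 over all probe sets. The log2 fold change was -0.33 in *MeGRXC15*-OE (SE 0.61, limma adjusted p = 0.777) with an interval of -1.72 to 1.05, and 0.0013 in MeGRX360-OE with an interval of -1.38 to 1.39. Without replicate 3 of *MeGRXC15*-OE the first value turned to 0.45 (limma adjusted p = 0.46), so its sign rests on that array.

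The other CMLs did not pass the test in any comparison. *CML30* (AT2G15680) read 40.8, 64.7 and 73.7 in *MeGRXC15*-OE, 37.5, 62.8 and 58.2 in MeGRX360-OE and 64.7, 62.4 and 66.6 in vector plants. Replicate 1 was again the lowest array of each overexpressor, while the vector arrays were alike. Its log2 fold changes were -0.16 (SE 0.25) and -0.33 (SE 0.25) against the vector. *CML43* (AT5G44460), a sensor linked to immune responses, stayed between 9.11 and 10.7 on all 9 arrays, among the dimmest 40% of probe sets. Its differences from the vector were -0.04 (95% interval -0.26 to 0.18) and 0.05 (-0.17 to 0.27), the narrowest intervals among the 12 genes, and its low intensity limits what it can show.

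**Figure D2:**
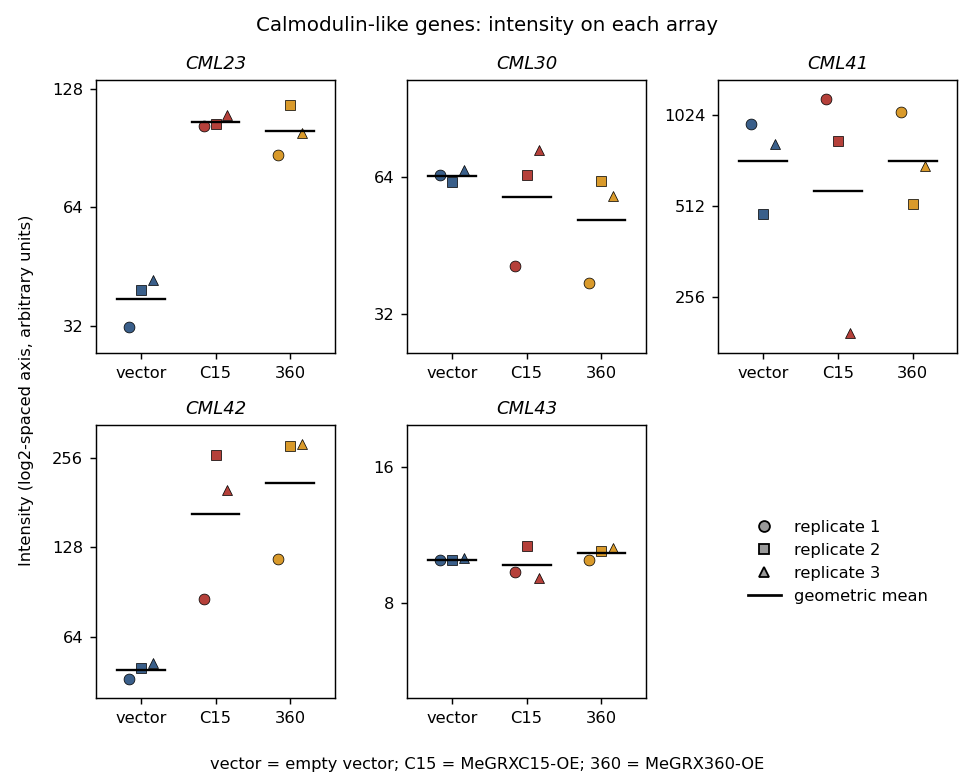
Intensity of the 5 CML probe sets on each of the 9 arrays (log2-spaced axes), with replicates as symbols and the geometric mean of each group as a bar. CML23 and CML42 are higher on all 6 overexpressor arrays than on the vector arrays, and CML41 has 1 low array at 194 in MeGRXC15-OE.

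Among the channels, *GLR2.7*, *GLR2.8* and *GLR2.9* are neighbours on chromosome 2 and are known for their part in the calcium influx that follows recognition of microbes. *GLR2.8* (AT2G29110) had the largest fold change of the 12 genes in *MeGRXC15*-OE and narrowly missed the threshold. It read 106, 85.6 and 59.8 in *MeGRXC15*-OE, 149, 21.5 and 29.6 in MeGRX360-OE, and 26.6, 16.7 and 19.4 in vector plants. The *MeGRXC15*-OE arrays were all above the vector arrays, whereas in MeGRX360-OE replicate 1 (line 5) was the highest of all 9 arrays and the other lines lay at or near the vector level. The log2 fold change was 1.99 in *MeGRXC15*-OE (SE 0.63, 3.98-fold, limma adjusted p = 0.0515) and 1.15 in MeGRX360-OE (SE 0.63, limma adjusted p = 0.273). All arrays share 1 estimate of the spread, and without replicate 1 of MeGRX360-OE the same *MeGRXC15*-OE value had an adjusted p of 0.00131. Under the alternatives the adjusted p ran from 0.00131 to 0.153. Without that array the MeGRX360-OE value dropped to 0.30 (limma adjusted p = 0.574), and the difference between the overexpressors was 1.69 (limma adjusted p = 0.0529) in place of 0.84 (limma adjusted p = 0.615).

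*GLR2.7* (AT2G29120), the next gene, gave no call. Its intensity was 46.8, 52.1 and 41.4 in *MeGRXC15*-OE, 68.5, 24.0 and 26.3 in MeGRX360-OE, and 99.8, 50.0 and 36.4 in vector plants. The groups overlapped, and vector replicate 1 was the highest array, 2.74 times the lowest of that group. The log2 fold changes were -0.28 (SE 0.45, limma adjusted p = 0.737) in *MeGRXC15*-OE and -0.69 (SE 0.45, limma adjusted p = 0.371) in MeGRX360-OE. *GLR2.9* (AT2G29100) was at 6.56, 5.24 and 7.40 in *MeGRXC15*-OE, 5.80, 5.16 and 5.19 in MeGRX360-OE, and 5.19, 5.08 and 4.15 in vector plants, close to the lowest value in the table (3.24). Its *MeGRXC15*-OE arrays were above the vector arrays, by 0.05 units at the closest, and the log2 fold change was 0.41 (SE 0.15, limma adjusted p = 0.0911).

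*GLR1.4* (AT3G07520), which codes for a methionine-gated channel, varied within groups more than between them. It read 40.5, 38.1 and 27.2 in *MeGRXC15*-OE, 84.7, 20.8 and 21.8 in MeGRX360-OE, and 46.2, 24.7 and 23.3 in vector plants. Replicate 1 was the highest array in each group, and the groups overlapped. The log2 fold changes were 0.22 (SE 0.52, limma adjusted p = 0.829) and 0.18 (SE 0.52, limma adjusted p = 0.875), and the second turned to -0.49 (limma adjusted p = 0.366) without replicate 1 of MeGRX360-OE.

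*GLR1.4*, *GLR2.7* and *GLR2.8* had in common that replicate 1 of MeGRX360-OE stood apart from the other lines of its group. The 3 genes read 84.7, 68.5 and 149 on that array and 20.8 to 29.6 on the others. That array also had a GAPDH end ratio (the intensity of the 3′ over the 5′ control probe set) of 16.1, beside 9.37 and 9.57 on the other MeGRX360-OE arrays and 8.96 to 11.1 in the other groups. Its ubiquitin end ratio was 3.12, beside 2.46 and 2.33 in its group, 2.46 to 2.56 in *MeGRXC15*-OE and 2.15 to 2.89 in vector plants. Its actin end ratio was 14.8, beside 12.0 and 13.8 in its group, and it lay within the range of *MeGRXC15*-OE (13.6 to 20.1) and below the vector arrays (17.9 to 19.2). The part of these values in the result was not tested. *CML41*, *GLR1.4* and *GLR2.8* were each highest on the array numbered 1 in all 3 groups, although the numbers stand for different lines in each group and pair nothing in the labels.

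The clade 3 GLRs include the genes known best from wound signalling. *GLR3.5* (AT2G32390) was the only one of the 7 GLRs that passed the test. It read 28.5, 22.8 and 32.2 in *MeGRXC15*-OE, 31.5, 42.7 and 41.0 in MeGRX360-OE, and 18.7, 24.7 and 23.2 in vector plants. The MeGRX360-OE arrays were all above the vector arrays, and the *MeGRXC15*-OE arrays overlapped with both. The rise in MeGRX360-OE was 0.79 on the log2 scale (SE 0.18, 1.73-fold, limma adjusted p = 0.0173), against 0.32 in *MeGRXC15*-OE (SE 0.18, limma adjusted p = 0.257). The difference between the overexpressors did not pass the test (-0.47, SE 0.18, unadjusted p = 0.0279, limma adjusted p = 0.302), so the gene is not shown to respond to only 1 of the constructs. The call in MeGRX360-OE was lost without replicate 2 (limma adjusted p = 0.0596) or 3 (0.0651) of that group or vector replicate 1 (0.0636).

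*GLR3.3* (AT1G42540) and *GLR3.6* (AT3G51480) carry together the leaf-to-leaf electrical signal after wounding, and neither passed the test. *GLR3.3* read 39.7, 38.6 and 50.5 in *MeGRXC15*-OE, 45.6, 69.0 and 65.6 in MeGRX360-OE, and 62.9, 54.9 and 52.6 in vector plants. All *MeGRXC15*-OE arrays were below the vector arrays, whereas MeGRX360-OE overlapped with both other groups. The log2 fold change was -0.41 in *MeGRXC15*-OE (SE 0.18, unadjusted p = 0.0496, limma adjusted p = 0.152), 0.06 in MeGRX360-OE (SE 0.18, limma adjusted p = 0.876), and -0.47 between the overexpressors (unadjusted p = 0.0287, limma adjusted p = 0.305). *GLR3.6* read 36.4, 38.4 and 31.8 in *MeGRXC15*-OE, 29.0, 34.9 and 39.9 in MeGRX360-OE, and 41.1, 40.6 and 45.5 in vector plants. All 6 overexpressor arrays were below the vector arrays, by 0.66 units at the closest, and the log2 fold changes were -0.26 (SE 0.14, limma adjusted p = 0.243) and -0.30 (SE 0.14, limma adjusted p = 0.186).

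**Figure D3:**
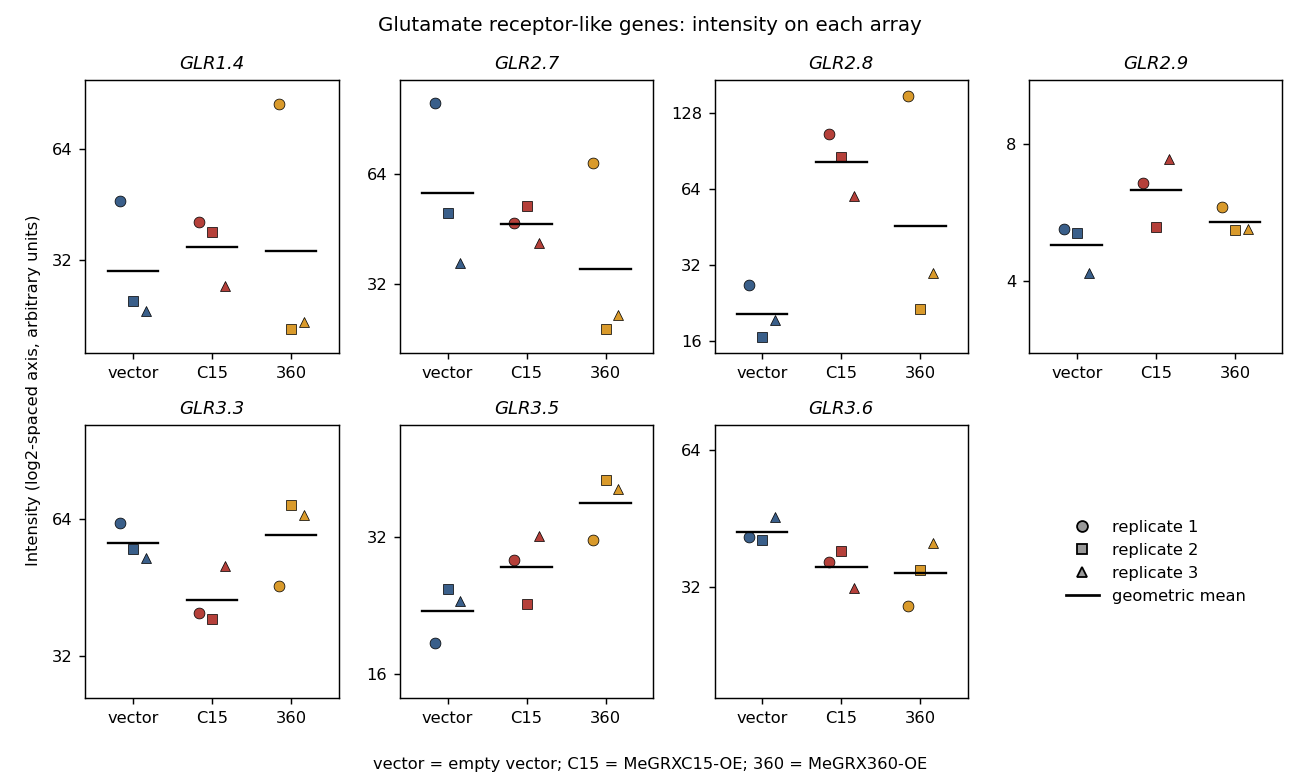
Intensity of the 7 GLR probe sets on each of the 9 arrays (log2-spaced axes), with replicates as symbols and the geometric mean of each group as a bar. Replicate 1 of MeGRX360-OE stands apart for GLR1.4, GLR2.7 and GLR2.8, and the MeGRXC15-OE arrays of GLR2.8 (59.8 to 106) lie above the vector arrays (16.7 to 26.6).

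Counting arrays instead of calls, 6 of the 12 genes had *MeGRXC15*-OE and vector arrays that did not overlap: *CML23*, *CML42*, *GLR2.8* and *GLR2.9* with all arrays higher, and *GLR3.3* and *GLR3.6* with all arrays lower. Over all probe sets this share was 37.1% (17.0% higher and 20.1% lower). In MeGRX360-OE it was 4 genes, *CML23*, *CML42* and *GLR3.5* higher and *GLR3.6* lower, beside 35.4% of all probe sets (16.5% higher and 18.9% lower). An unadjusted p under 0.05 was reached by 5 genes in *MeGRXC15*-OE (*CML23*, *CML42*, *GLR2.8*, *GLR2.9* and *GLR3.3*) and by 3 in MeGRX360-OE. Over all probe sets this share was 32.8% and 28.7%, so these counts are no result about the 12 genes. Within groups the median ratio of the highest to the lowest array was 1.41 in *MeGRXC15*-OE, 1.59 in MeGRX360-OE and 1.28 in vector plants. Over all probe sets it was 1.27, 1.25 and 1.2. Arrays more than 2-fold apart were found for 2 of the 12 genes in *MeGRXC15*-OE, 5 in MeGRX360-OE and 1 in vector plants, beside 8.27%, 6.28% and 5.03% of all probe sets. The 5 were *CML41*, *CML42*, *GLR1.4*, *GLR2.7* and *GLR2.8*, each with replicate 1 as its highest or lowest array. The counts of 2 and 1 in the other groups are no result about the set.

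Between *MeGRXC15*-OE and MeGRX360-OE, limma called 0 of the 12 genes, and only *GLR3.3* and *GLR3.5* had an unadjusted p under 0.05. This comparison called 0.145% of all probe sets (33 of 22746), and 13.5% had an unadjusted p under 0.05. The arrays of the 2 overexpressors overlapped for each of the 12 genes, beside 16.3% of probe sets whose arrays did not overlap. The 95% intervals of the difference reached down to -1.72 on the log2 scale for *CML41* and up to 2.26 for *GLR2.8*, so for these genes the arrays leave room for a difference of that size.

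**Figure D4:**
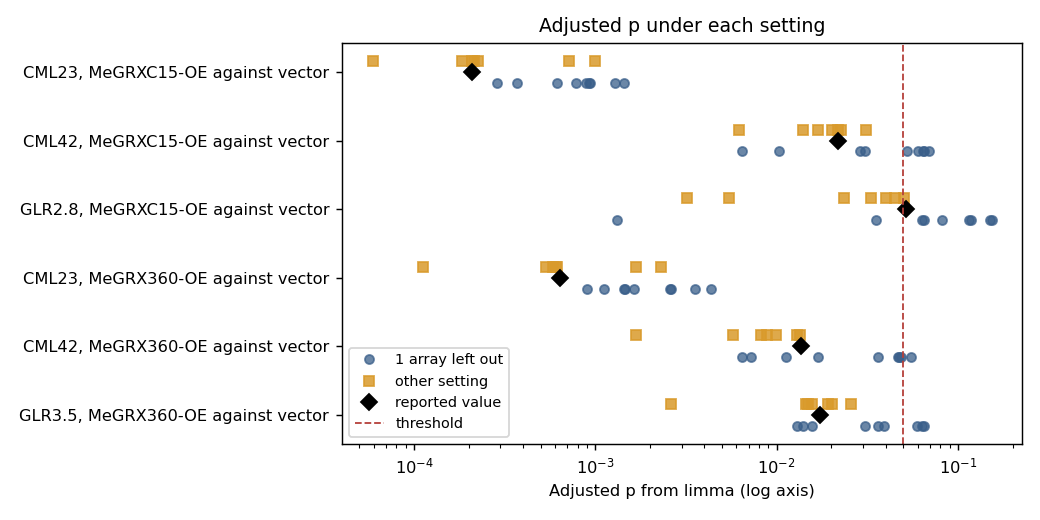
Adjusted p of the 5 calls, and of GLR2.8 in MeGRXC15-OE, as reported (diamonds), with 1 array left out (circles) and under the other settings (squares), on a log axis with the threshold of 0.05 as a dashed line. CML23 stays left of the line in both comparisons, GLR2.8 falls on both sides, and CML42 and GLR3.5 cross it with single arrays left out.

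The calcium-dependent kinases and the remaining families could be read only through names that the study itself lists. These names belong to probe sets that the platform annotation does not list or names by locus only. The study listed the probe sets for their change in *MeGRXC15*-OE against the vector on these same arrays. The counts below describe them and are no evidence of a direction or of a difference between the overexpressors. There were 25 such probe sets for 24 gene names: 10 kinases, 7 sensors, 4 channels, 1 exchanger, 2 pumps and *RBOHD*, the NADPH oxidase that calcium-dependent kinases phosphorylate. In *MeGRXC15*-OE, the group the list was made from, 17 rose, 6 fell and 2 (*CAX3* and *CNGC4*) did not pass. In MeGRX360-OE 12 rose, 6 fell and 7 did not pass, and the choice of the list makes these counts unlike. Between the overexpressors limma called 0. An unadjusted p under 0.05 was reached by 12 of the 25, beside 13.5% of all probe sets. The *MeGRXC15*-OE arrays that chose the list are 1 side of this comparison, so this count is no result about a difference.

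The 7 sensor probe sets, with *CAM4* counted by probe set, all rose in *MeGRXC15*-OE. In MeGRX360-OE *CBL1* did not pass (limma adjusted p = 0.052). As the sensors were listed for their change, this adds nothing to the rises of *CML23* and *CML42*. Among the CMLs chosen by name, *CML30*, *CML41* and *CML43* were not called. The listed sensors include *CML24* (*TCH2*), the relative of *CML23*. It read 756, 1033 and 1082 in *MeGRXC15*-OE and 186 to 259 in vector plants, a rise of 2.13 (SE 0.25). *CML12* (*TCH3*), another touch-induced sensor, rose by 2.96 (SE 0.28) and 2.73 (SE 0.28) on the log2 scale. The 10 kinases went both ways, with 6 higher and 4 lower in *MeGRXC15*-OE. *CIPK21* rose by 2.82 (SE 0.31) and *CPK32* by 2.35 (SE 0.23), while *CIPK5* fell by 3.29 (SE 0.58) and *CIPK7* by 2.28 (SE 0.19). Of the channels, *GLR3.2* was at 39.7 to 49.2 in vector plants, 20.6 to 24.0 with *MeGRXC15* overexpressed and 17.4 to 26.6 in MeGRX360-OE plants, and it fell by 1.02 and 1.15 on the log2 scale (SE 0.18 in both). *CNGC2*, a cyclic nucleotide-gated channel, fell by 1.16 and 1.31 (SE 0.24 in both). *CNGC13* rose by 1.32 (SE 0.24) in *MeGRXC15*-OE, with 0.38 (limma adjusted p = 0.358) in MeGRX360-OE and a difference of 0.95 between them (limma adjusted p = 0.151).

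**Figure D5:**
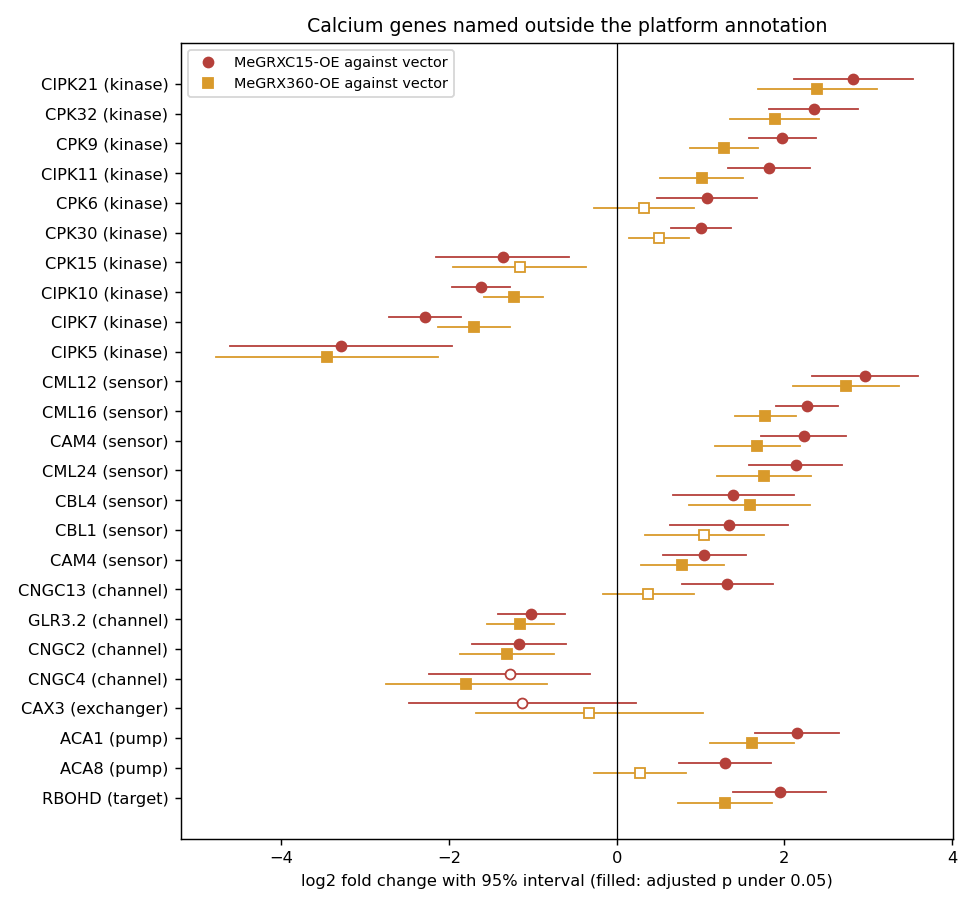
Log2 fold changes with 95% intervals for the 25 calcium-related probe sets named only by the study, against the vector in MeGRXC15-OE (circles) and MeGRX360-OE (squares), filled where the limma adjusted p was under 0.05. Sensors and pumps lie to the right of 0, kinases on both sides, and CAM4 appears with 2 probe sets; the study listed these genes for their change on the same arrays.

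Of 94 further calcium-related names (pumps, exchangers, annexins, calmodulin-binding factors and targets of the kinases), 2 had a single-gene probe set in the platform annotation and 6 more were among those the study lists. *CaS*, the calcium-sensing receptor of the thylakoid membrane, read 649, 693 and 485 in *MeGRXC15*-OE, 1252, 1460.0 and 1232 in MeGRX360-OE, and 1592, 2156 and 1956 in vector plants. The 3 groups did not overlap. It fell by 1.65 in *MeGRXC15*-OE (SE 0.17, limma adjusted p = 2.87e-04), and in MeGRX360-OE the value was -0.53 (SE 0.17, limma adjusted p = 0.0678). The difference between the overexpressors was -1.12 (SE 0.17, limma adjusted p = 0.0542). The leaf markers *RCA* and *PRK*, for chloroplast enzymes, were also lower on all overexpressor arrays than on the vector arrays, with *MeGRXC15*-OE below MeGRX360-OE, whereas *LHCB4.1*, for a thylakoid antenna protein, was not. Their part in the result was not tested. The sodium/calcium exchanger-like gene *NCL* did not pass the test in any comparison.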

How the data were processed

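The authors deposited 1 intensity per probe set and array on a linear scale. The submitters' processing notes name RMA; neither its version nor the step to a linear scale is given in the sources used here. Values ranged from 3.24 to 15640. From there, log2 was taken and group means were fitted with limma (version 3.58.1, R 4.3.3) to 22746 probe sets, without the 64 controls. The 9 arrays gave 6 residual and the prior 2.76 degrees of freedom, and p-values were adjusted by Benjamini-Hochberg over all probe sets. No detection calls were used here. The number of arrays limits the precision, and whether the vector arrays come from separate lines is not stated outright. The fit was tested on simulated data.

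The members and lists were chosen with earlier results of these data known. Each of the 12 genes is described with its values on every array; within each family full statistics went to those with the largest changes in each comparison and the brightest one, and the other genes were added after their values were seen. The platform annotation named 13513 probe sets by a single gene, gave 503 several genes and did not list 8794. Names were taken from it and, for 25 probe sets, from the study's own list; all 12 loci matched RefSeq. Where the study's list gives *CAM4* to 2 probe sets, which of the near-identical calmodulin genes each reads is not settled. Promoter and protein sequences were not analysed here.

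Alternatives were a replicate block, quantile normalization, median centring, leaving out the dimmest 40% of probe sets, an intensity trend, array weights, only the 6 arrays compared, each array left out in turn, and a fold over 2 with unadjusted p under 0.05. Python 3.11.15 with pandas 2.3.3, numpy 2.4.6 and matplotlib 3.10.9 joined and drew the tables.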

Additional observations from a re-analysis of the deposited data

How the results depend on the processing

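Of 606 values of the 12 genes under the alternatives, 583 kept their direction or stayed uncalled, 10 lost a call and 13 gained one, and no call reversed. In *MeGRXC15*-OE the number of genes higher was 2 as reported, 4 with median centring and 4 with array weights, and 1 to 3 with single arrays left out. Those gained were *GLR2.8* (limma adjusted p = 0.045 and 0.00549) and *GLR2.9* (0.0496 and 0.0334). With array weights 1 gene, *GLR3.3*, was lower (0.0305). The median of the 12 genes in *MeGRXC15*-OE was 0.32 with array weights and between 0.0013 and 0.25 with single arrays left out. In MeGRX360-OE 1 to 3 genes were higher with single arrays left out. *GLR3.5* in MeGRX360-OE did not reach a fold over 2. The cause of these changes was not tested.

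Deviations of same-numbered arrays correlated between -0.21 and 0.27, so the numbers do not pair the arrays. With the replicate number as a block 3 genes were higher in *MeGRXC15*-OE, *GLR2.8* with them (limma adjusted p = 0.0235), and 3 in MeGRX360-OE. Each gene has 1 probe set, so a choice between probe sets gave no value. *CML43* and *GLR2.9* were left out with the dimmest 40%, which leaves 10 genes, and low intensity limits what they can show.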

Other observations

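Some glutamate receptor probe sets fell outside the naming rule. *ATGLR1.2* (AT5G48400) read 7.58 to 10.6 on all 9 arrays and was not called in any comparison. A probe set shared by *GLR2.2* and *GLR2.3* read 6.34 to 6.69 in vector plants, 6.99 to 8.67 with *MeGRXC15* overexpressed and 6.60 to 7.58 in MeGRX360-OE plants. Its *MeGRXC15*-OE arrays were all above the vector arrays, with a log2 difference of 0.22 (SE 0.12, limma adjusted p = 0.243).

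Of the genes next to the 12 on the chromosome, 11 other than these had a single-gene probe set. In each comparison with the vector 2 of the 11 fell, both beside *CML30*. Over all probe sets 12.8% were called lower in *MeGRXC15*-OE and 9.72% in MeGRX360-OE, so the count is no result about the neighbours. AT2G15690 read 85.1 to 99.6 in vector plants, 33.3 to 44.2 with *MeGRXC15* overexpressed and 30.4 to 38.3 in MeGRX360-OE plants, a fall of 1.22 and 1.47 on the log2 scale (SE 0.14 in both). AT2G15695 fell by 0.73 and 0.65 (SE 0.11 in both). *CML30* between them was not called. The gene after *CML23* is *CAM4*. The study lists 2 probe sets under that name, for their change on these same arrays, and which calmodulin gene each reads is not settled. Both rose in each overexpressor, by 2.23 and 1.04 in *MeGRXC15*-OE (SE 0.22 in both). Neither value is shown to belong to the neighbour of *CML23*.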
